A study of Mus musculus with 26 samples.

Results

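The genes described here encode the fibrillins, the microfibril-associated proteins and the ADAMTS and ADAMTSL proteins that bind fibrillin. They were taken by name from the count files, and all 10 were found among the 54532 gene identifiers: Fbn1, Fbn2, Mfap2, Mfap4, Mfap5, Adamtsl2, Adamtsl4, Adamts10, Adamts17 and Thsd4. RNA of mouse aorta was sequenced in 26 libraries to ask how the Fbn1 C1041G mutation, the aortic region and an antisense oligonucleotide (ASO) against angiotensinogen, the precursor of angiotensin II, alter gene expression. All libraries came from male mice. Untreated C1041G/+ mice, which carry 1 mutant copy of Fbn1 in every cell, gave 4 libraries of ascending aorta, and untreated wild-type littermates gave 4. The same genotypes gave 4 libraries each of descending aorta. In a separate experiment 5 libraries of ascending aorta came from C1041G/+ mice given AGT-ASO and 5 from C1041G/+ mice given a control ASO, so every antisense library carries the mutation and no treated wild-type group was analysed here. The labels do not give the age, the strain, the dose or the length of treatment, nor do they tie each library to its own animal, so p-values measure the spread between libraries.

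Fibrillins are large, cysteine-rich glycoproteins that assemble head to tail into microfibrils, the threads that scaffold elastin in the aortic wall and that hold latent TGF-beta in the matrix. Fibrillin-1 is the main fibrillin of adult tissue and fibrillin-2 is made mostly in development. Mutations of human FBN1 cause Marfan syndrome, in which the aorta widens and can tear, and the C1041G/+ mouse is a model of it. Mfap2 and Mfap5 encode small glycoproteins that decorate microfibrils, and Mfap4 a protein with a fibrinogen-like domain that binds fibrillin and elastin. The ADAMTSL proteins are related to the ADAMTS proteases but lack the protease domain, and several bind fibrillin-1.

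Total counts ranged from 18534146 to 23959303 per library in mutant and from 18613662 to 21741934 in wild-type ascending aorta, and over all libraries from 17171652 to 28554356. Levels are given as CPM, a count scaled by the depth and composition of its library, and as CPM per kilobase of exon where genes are compared. All 10 smooth muscle markers were detected in every group, with mean summed levels of 22800 to 25500 CPM. Markers of neighbouring tissues moved with region: 10 mesothelial genes summed to 484 CPM in mutant and 424 CPM in wild-type ascending aorta, against 29.0 and 27.3 CPM in mutant and wild-type descending aorta. The 12 heart muscle markers summed to 306 to 672 CPM in mutant and 287 to 1200 CPM in wild-type ascending aorta, against 127 to 246 CPM in mutant and 73.8 to 146 CPM in wild-type descending aorta. In the antisense experiment the heart muscle sum was 321 to 750 CPM with AGT-ASO, against 735 to 1700 CPM with control ASO, and the part of these tissues in the results below was not tested except where a value is given. The experiments also differed: endothelial markers summed to 346 CPM with AGT-ASO, 398 CPM with control ASO and 1710 CPM in untreated mutant ascending aorta, and levels were tested only within an experiment. Control-ASO library 8 was the highest or lowest control library in several of the genes, though the outlier check below flagged it in none. A fit without it is given for Mfap5 and Adamtsl2. In bulk tissue, fewer cells of a type and less RNA per cell cannot be told apart.

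The site that separates the genotypes is shown because every mutant and antisense library carries it on 1 allele. The codon of Fbn1 that C1041G changes (transcript ENSMUST00000103234.1 of GENCODE M21) lies in exon 25 of 65 at chr2:125363953-125363955 (GRCm38, minus strand). The reference sequence around it, spliced from 2 exons between positions 125363908 and 125365496 of chromosome 2, encodes 31 residues of which 4 are cysteines, and the capitals mark the cysteine codon that is replaced:
Fbn1 C1041G site: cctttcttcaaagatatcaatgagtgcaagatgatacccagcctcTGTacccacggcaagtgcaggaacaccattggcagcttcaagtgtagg
In the whole coding sequence 361 of 2873 codons, or 12.6%, are cysteine codons. The label describes a change of 1 residue, so the count of Fbn1 reads does not check the genotype labels.

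The promoter table of RefSeq (GRCm38.p6) holds 300 bases, from 250 before to 50 after the start, for 6 of the 10 genes. Both sequences below belong to genes whose level changed with a condition, Adamtsl2 at chr2:27079129-27079428 on the plus strand and Adamtsl4 at chr3:95687868-95688167 on the minus strand:
Adamtsl2 promoter: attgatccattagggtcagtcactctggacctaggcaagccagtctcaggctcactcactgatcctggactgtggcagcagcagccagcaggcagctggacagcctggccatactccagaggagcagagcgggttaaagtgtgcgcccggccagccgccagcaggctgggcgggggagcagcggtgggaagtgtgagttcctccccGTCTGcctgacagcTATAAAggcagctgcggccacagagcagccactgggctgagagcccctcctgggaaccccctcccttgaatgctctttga
Adamtsl4 promoter: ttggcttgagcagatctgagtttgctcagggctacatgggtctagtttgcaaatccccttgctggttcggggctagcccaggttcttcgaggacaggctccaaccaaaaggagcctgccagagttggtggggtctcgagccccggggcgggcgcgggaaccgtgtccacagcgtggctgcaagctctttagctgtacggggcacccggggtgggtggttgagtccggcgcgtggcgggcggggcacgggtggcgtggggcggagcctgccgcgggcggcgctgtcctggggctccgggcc
The capitals mark TATAAA, the core of a TATA box, and CAGAC, a core that SMAD proteins bind, here on the opposite strand as GTCTG. Adamtsl2 has 1 match of each, and Adamtsl4 and Fbn1 have none. Both strands were searched for these 2 words, which do not overlap there. Of 32851 mouse promoters of this length, 13.6% hold TATAAA and 49.6% hold CAGAC, so a match is a description only. Thsd4, whose level was not called different in any comparison, has an entry with 3 matches of CAGAC, and Mfap2 an entry with 1. None of the 8 entries for these genes holds a CArG box, which 1.63% of promoters hold. GC content was 62.3% for Adamtsl2, 68.0% for Adamtsl4 and 60.3% for Fbn1, against a median of 52.7%.

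Per kilobase of exon, Mfap4 was the most abundant of the 10 genes in all 6 groups and Fbn2 the least. In mutant ascending aorta Mfap4 had a mean level of 240.9 CPM per kb, Mfap5 55.2, Thsd4 38.4 and Fbn1 30.0 CPM per kb. In wild-type ascending aorta Mfap4 had a mean level of 394 CPM per kb, Mfap5 87.2, Thsd4 34.5 and Fbn1 33.5 CPM per kb. Thsd4, which encodes an ADAMTS-like protein that promotes fibrillin-1 assembly in cultured cells, thus stood close to Fbn1 itself. Adamts10, Mfap2, Adamtsl2 and Adamtsl4 lay between 8.10 and 15.5 CPM per kb in mutant ascending aorta. Adamts17 and Fbn2 were rare there, at 0.162 and 0.0772 CPM per kb.

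**Figure D1:**
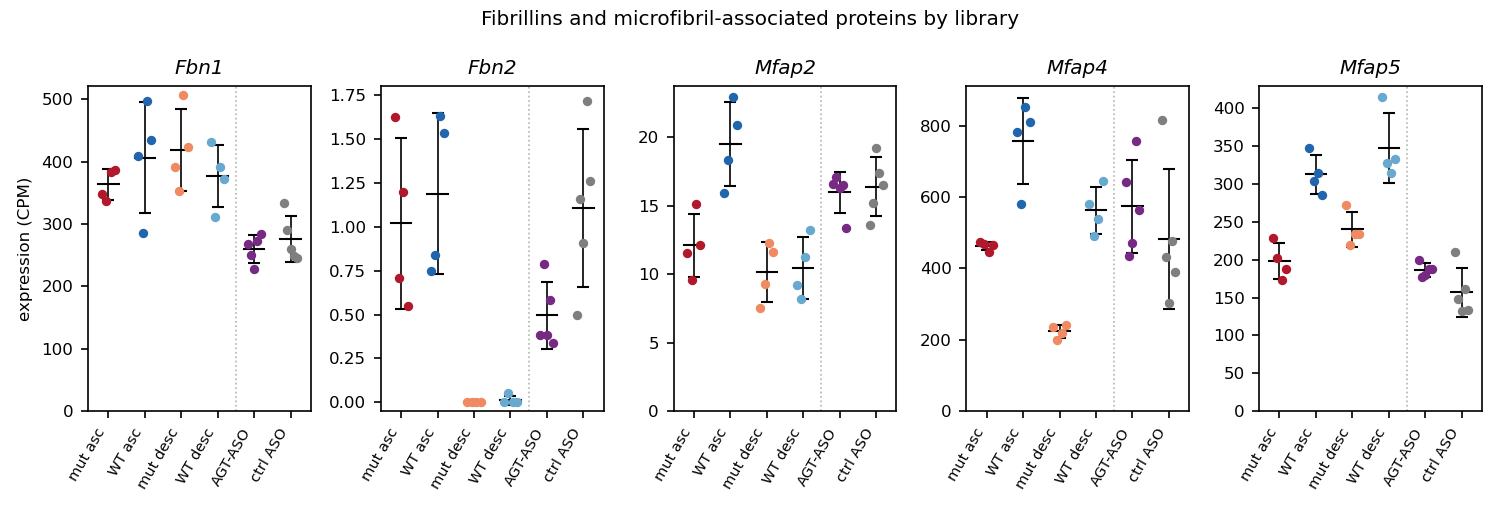
Expression (CPM, y axis) of the fibrillin and Mfap genes in each library by group; points are libraries, bars the mean and SD, and the dotted line parts the untreated from the antisense experiment. Among the untreated libraries Mfap4 and Mfap5 are lower in every mutant than in every wild-type library of the same region, while the Fbn1 genotypes overlap and Fbn2 is near 0 in descending aorta.

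The level of Fbn1 RNA was not called different by genotype, by region or with AGT-ASO. Fbn1 (ENSMUSG00000027204, chr2:125300594-125507993) had 348, 337, 383 and 386 CPM in mutant and 408, 285, 498 and 434 CPM in wild-type ascending aorta. In descending aorta it had 391, 352, 507 and 424 CPM in mutant and 432, 312, 392 and 373 CPM in wild-type libraries. The groups overlapped in both regions, and the wild-type ascending libraries were the most spread. The log2 fold change of mutant over wild type was -0.16 ± 0.15 (SE, n = 4 each) in ascending aorta (95% interval -0.47 to 0.15, adjusted p = 0.629, edgeR). In descending aorta it was 0.15 ± 0.15 (interval -0.16 to 0.46, adjusted p = 0.805, edgeR). These intervals leave room for a modest change in either direction. By region the log2 fold change was -0.20 ± 0.15 in mutant (adjusted p = 0.502) and 0.11 ± 0.15 in wild type (adjusted p = 0.776). With AGT-ASO, Fbn1 had 268, 249.6, 227, 273 and 283 CPM, against 334, 291, 260.1, 249 and 245 CPM with control ASO. These groups overlapped, with a log2 fold change of -0.08 ± 0.09 (n = 5 each, adjusted p = 0.754). Fbn1 exons share 2442 bases with Gm9913 on the opposite strand, which averaged 0.318 to 0.602 CPM per group. Without a known strand setting, reads of that overlap cannot be assigned with certainty.

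Fbn2 (ENSMUSG00000024598, chr18:58008623-58210487) was detected in ascending aorta at a low level and hardly at all in descending aorta. It had 1.62, 0.707, 1.20 and 0.551 CPM in mutant ascending aorta and 0 in each of the 4 mutant descending libraries. In wild-type ascending aorta it had 0.747, 0.839, 1.63 and 1.53 CPM, against 0, 0.0508, 0 and 0 CPM in wild-type descending aorta. The regions did not overlap in either genotype. Mutant ascending libraries held 84 Fbn2 counts and mutant descending libraries 0, so the level was at least 26.1-fold higher when set against a floor of 3 counts for the group as a whole (0.0401 CPM). Wild-type ascending libraries held 97 counts and wild-type descending libraries 1, a ratio of 87.9 with an exact 95% interval of 15.4 to 3510 that covers counting error only. Fbn2 passed the filter on low counts only through the ascending libraries, so that a difference by region had to appear, and its counts are given as a description with no test. In ascending aorta the genotypes overlapped for Fbn2, which did not pass the test (log2 fold change -0.21 ± 0.43, adjusted p = 0.851).

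Even where it was highest, Fbn2 was a trace of the fibrillin RNA. Its share of summed Fbn1 and Fbn2 CPM per kb was 0.259% ± 0.129 in mutant and 0.265% ± 0.0686 in wild-type ascending aorta (SD, n = 4 each). The share was 0.176% ± 0.0711 with AGT-ASO and 0.384% ± 0.182 with control ASO (SD, n = 5 each). The longest exact run that Fbn1 and Fbn2 transcripts share is 26 bases.

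Of the 10 genes, 3 fell with the mutation in ascending aorta and none rose, where 2.19% of the 15645 genes tested were called, 1.18% higher and 1.00% lower. In descending aorta 2 fell and none rose, where 1.21% of genes were called, 0.678% higher and 0.531% lower. Mfap4 and Mfap5 were called in both regions and Adamtsl4 in ascending aorta. Mutant and wild-type libraries did not overlap for 6 of the 10 genes in ascending aorta, against 9.50% of all genes, and for 2 of 10 in descending aorta, against 7.29% of all genes. The median log2 fold change of the 10 genes in ascending aorta was -0.45, or -0.46 without Fbn2, against -0.01 for all genes. In descending aorta the median of the 9 genes without Fbn2 was -0.24, against 0 for all genes.

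Marker lists of other cell types also differed between the genotypes, and their part in the falls described next was not tested, other than heart muscle as a covariate in ascending aorta, with which Mfap4 and Mfap5 were still called. The 12 heart muscle markers had a median log2 fold change of -1.45 by genotype there. Of these, edgeR called 1 lower (1.00% of all genes) and 0 higher, 6 had an unadjusted p under 0.05, and DESeq2 called 1. Leukocyte markers summed to 532 to 778 CPM in mutant and 424 to 490.4 CPM in wild-type ascending aorta, with no overlap. Of these 12 markers 0 were called by edgeR, 3 had an unadjusted p under 0.05, and DESeq2 called 0. Cartilage markers summed to 169 to 229 CPM in mutant and 152 to 439 CPM in wild-type ascending aorta, with a median log2 fold change of -1.31 over the 10 tested and Matn1 at 0 in both groups. Acan rose by genotype there (log2 fold change 1.24 ± 0.09), while Chad (-2.91 ± 0.43) and Col11a2 (-1.66 ± 0.41) fell, all 3 named after their values were seen. The Col11a2 call (adjusted p = 0.0481) was lost in 10 of 14 alternatives, 6 of them fits without mutant ascending library 2, 4 or 8 or wild-type ascending library 3, 5 or 7. In descending aorta endothelial markers summed to 2140 to 2480 CPM in mutant and 2500 to 3370 CPM in wild-type libraries, with no overlap. Of these 10 markers 0 were called by edgeR, 6 had an unadjusted p under 0.05, and DESeq2 called 1. Cartilage markers summed to 140 to 179 CPM in mutant and 86.0 to 130 CPM in wild-type descending aorta, with no overlap. Of 10 tested, with a median log2 fold change of -0.41, edgeR called 1 higher (0.678% of all genes) and 0 lower. DESeq2 called 2. Mesothelial markers had a median log2 fold change of 0.73 there, with 0 called by edgeR and 3 by DESeq2. Brown adipocyte markers had medians of -0.66 in ascending and -0.29 in descending aorta, with 0 called by either.

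Mfap4 (ENSMUSG00000042436, chr11:61485431-61488900), the gene of the fibrinogen-like microfibril protein, had the largest called fall by genotype in both regions. In ascending aorta it had 474, 468, 445 and 465 CPM in mutant and 783, 582, 852 and 812 CPM in wild-type libraries. In descending aorta it had 236, 199.8, 219.6 and 241 CPM in mutant and 581, 490.4, 538 and 645 CPM in wild-type libraries. No mutant library reached the lowest wild-type library of its region, and the mutant ascending libraries lay close together. The log2 fold change was -0.71 ± 0.11 in ascending aorta, 38.8% lower in mutant (adjusted p = 0.00146), and -1.33 ± 0.11 in descending aorta, 60.2% lower (adjusted p = 2.01e-06). Both calls stood under every alternative analysis tried, 14 for ascending and 13 for descending aorta. Per kilobase, Mfap4 RNA was 3.43 ± 0.474 times the level of Fbn1 RNA in mutant descending aorta and 9.50 ± 1.15 times in wild-type descending aorta (SD, n = 4 each). In ascending aorta the ratio was 8.07 ± 0.717 in mutant and 11.9 ± 0.864 in wild-type libraries. Mfap4 exons share 89 bases with Mapk7 on the opposite strand, whose group means were 21.5 to 23.6 CPM.

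Mfap5 (ENSMUSG00000030116, chr6:122505845-122529290) encodes a microfibril-associated glycoprotein that also binds Notch ligands. In ascending aorta it had 228, 203, 173 and 188 CPM in mutant and 347, 304, 315 and 286 CPM in wild-type libraries. In descending aorta it had 273, 219, 235 and 234 CPM in mutant and 415, 328, 314 and 333 CPM in wild-type libraries. The genotypes did not overlap in either region. Mfap5 fell by 0.66 ± 0.10 on the log2 scale in ascending (adjusted p = 0.00187) and by 0.53 ± 0.10 in descending mutant aorta (adjusted p = 0.012), that is by 36.7% and 30.9%. Fibroblast markers, a cell type in which Mfap5 is expressed, summed to 4530 to 5240 CPM in mutant and 5310 to 7150 CPM in wild-type ascending aorta, with no overlap. Of the 10 markers, 1 rose (Dpep1, adjusted p = 0.034) and 1 fell (Dpt, adjusted p = 0.042), 4 had an unadjusted p under 0.05, and the median log2 fold change was -0.35. Both, named after their values were seen, lost their call in 10 of 14 alternatives, among them the random replicate block (0.0508 and 0.0739) and every fit that left out a library other than wild-type ascending library 1 (0.0526 to 0.107). In descending aorta they summed to 4220 CPM in mutant and 4320 CPM in wild type, where none of 10 was called by edgeR, 2 had an unadjusted p under 0.05 and DESeq2 called 1. The part of fibroblast content in the Mfap5 values was not tested.

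Mfap2 (ENSMUSG00000060572, chr4:141010418-141015984), the other small microfibril glycoprotein, had 11.6, 9.57, 15.2 and 12.2 CPM in mutant and 15.95, 18.3, 23.0 and 20.9 CPM in wild-type ascending aorta. All mutant libraries lay below all wild-type libraries. The log2 fold change was -0.69 ± 0.18 and its adjusted p of 0.0526 missed the threshold of 0.05. It passed with the library number as a random replicate block (adjusted p = 0.0229), with DESeq2 (0.0104), without a count filter (0.0316), and without mutant ascending library 6 (0.0332) or wild-type ascending library 1 (0.0434). That is 5 of 14 alternatives, and in the others the adjusted p reached 0.253. In descending aorta Mfap2 had 7.53, 9.29, 12.3 and 11.6 CPM in mutant and 9.20, 8.18, 11.3 and 13.2 CPM in wild-type libraries. These groups overlapped, with a log2 fold change of -0.04 ± 0.18 (adjusted p = 0.975).

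Among the fibrillin-binding ADAMTS and ADAMTSL genes, Adamtsl4 was the only one called by genotype in edgeR. Adamtsl4 (ENSMUSG00000015850, chr3:95676201-95687917), whose human counterpart is mutated in inherited lens dislocation, had 38.7, 29.4, 31.5 and 36.5 CPM in mutant and 49.7, 50.1, 41.1 and 42.7 CPM in wild-type ascending aorta. The groups did not overlap, and the level was 25.8% lower in mutant, with a log2 fold change of -0.43 ± 0.10 (adjusted p = 0.0368). This call did not stand without mutant ascending library 4 (adjusted p = 0.109) or 6 (0.0888), without wild-type ascending library 1 (0.0908) or 3 (0.097), with only both groups in the fit (0.0837), or with heart muscle markers as a covariate (0.146). In descending aorta Adamtsl4 had 43.1, 44.2, 52.3 and 45.9 CPM in mutant and 48.9, 50.5, 39.9 and 47.3 CPM in wild-type libraries. There the groups overlapped, with a log2 fold change of -0.01 ± 0.10 (adjusted p = 0.99).

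Adamts10 and Adamts17 encode proteases, and mutations of both human genes cause Weill-Marchesani syndromes, with short stature and lens defects. Adamts10 (ENSMUSG00000024299, chr17:33524204-33553782) had 115, 127, 131 and 139.6 CPM in mutant and 167, 163, 148 and 159 CPM in wild-type ascending aorta. The groups did not overlap, but the log2 fold change of -0.32 ± 0.10 did not pass (adjusted p = 0.118). Adamts17 (ENSMUSG00000058145, chr7:66839735-67153171) had 1.03, 0.925, 1.53 and 1.55 CPM in mutant and 2.35, 1.55, 3.52 and 2.73 CPM in wild-type ascending aorta. Its 3 highest wild-type libraries lay above all mutant libraries. The log2 fold change was -1.01 ± 0.29 (adjusted p = 0.0841), and it passed with DESeq2 (0.0346) and without wild-type ascending library 3 (0.0496). That is 2 of 14 alternatives, and in the others the adjusted p reached 0.24. Adamtsl2 in ascending aorta also had groups that did not overlap without passing, with a log2 fold change of -0.46 ± 0.26 (adjusted p = 0.399). In descending aorta the genotypes overlapped for Adamtsl2, Adamts10 and Adamts17, and edgeR called none of them. The log2 fold change of Adamtsl2 there was -0.69 ± 0.28 (adjusted p = 0.371). For Adamts10 it was -0.24 ± 0.10 (adjusted p = 0.379) and for Adamts17 -0.58 ± 0.33 (adjusted p = 0.573).

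Thsd4 (ENSMUSG00000032289, chr9:59966931-60522046) was called in none of the 6 comparisons by edgeR. It had 435, 485, 619 and 611 CPM in mutant and 530.2, 384, 514 and 499.7 CPM in wild-type ascending aorta. In descending aorta it had 599, 588, 638 and 684 CPM in mutant and 530, 598, 633 and 406 CPM in wild-type libraries. The genotypes overlapped in both regions. The log2 fold changes of mutant over wild type were 0.16 ± 0.14 in ascending (adjusted p = 0.621) and 0.21 ± 0.14 in descending aorta (adjusted p = 0.663). Over the 4 untreated groups the highest mean of Thsd4 was 1.30 times the lowest, against 1.15 times for Fbn1 and 3.38 times for Mfap4.

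**Figure D2:**
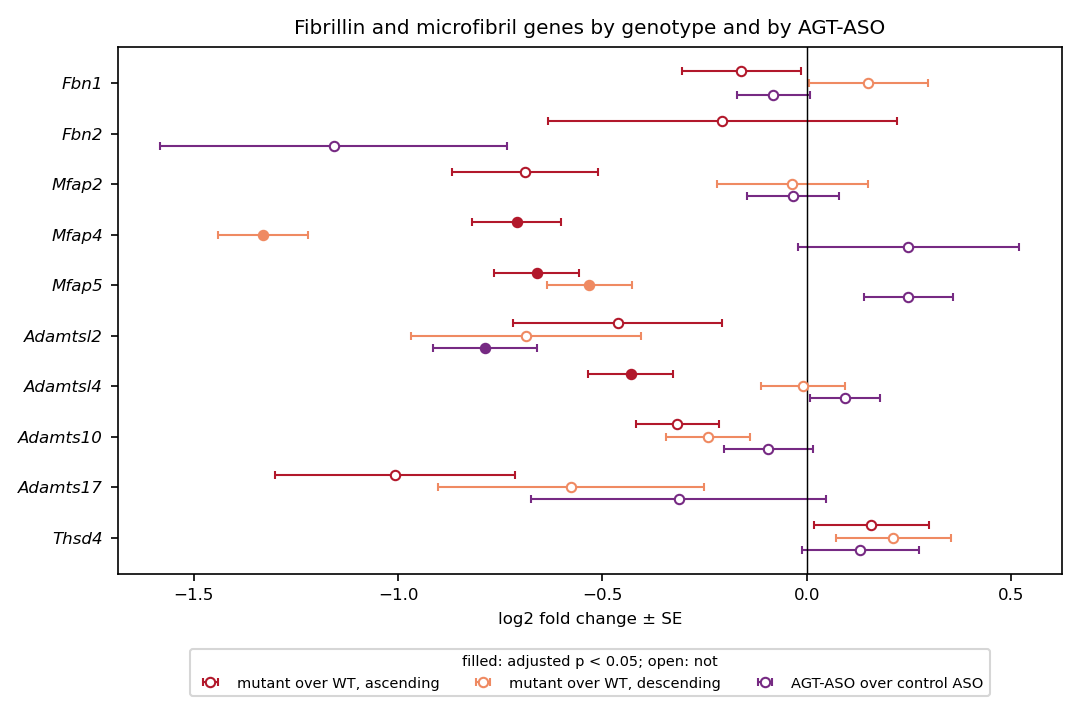
Log2 fold change (x axis) with its standard error for each gene, for mutant over wild type in ascending and in descending aorta and for AGT-ASO over control ASO; filled points have an edgeR adjusted p under 0.05. Fbn2 has no value by genotype in descending aorta, where both groups are at or under 3 counts. Mfap4 and Mfap5 are filled in both regions, Adamtsl4 in ascending aorta and Adamtsl2 with AGT-ASO.

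Between regions, 4 of the 9 genes other than Fbn2 were called in mutant aorta and 4 in wild-type aorta. The library numbers that recur in both regions were not used in these fits. In mutant aorta 2 rose and 2 fell in ascending against descending tissue, where 9.92% of all genes were called, 6.41% higher and 3.51% lower. In wild-type aorta 4 rose and none fell, where 11.1% of all genes were called, 7.82% higher and 3.31% lower. The regions did not overlap for 4 of these 9 genes in mutant aorta, against 14.4% of all genes, and for 4 in wild-type aorta, against 14.5%. The median log2 fold change of the 9 genes was -0.20 in mutant and 0.11 in wild-type aorta, against -0.01 for all genes in each.

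Adamtsl2 (ENSMUSG00000036040, chr2:27079379-27108981), mutated in human geleophysic dysplasia, had the largest region difference apart from Fbn2. It had 81.8, 60.6, 61.3 and 82.6 CPM in mutant ascending aorta, against 12.1, 9.58, 12.3 and 12.9 CPM in mutant descending aorta. In wild type it had 90.3, 85.5, 106 and 113 CPM in ascending aorta, against 16.8, 16.98, 8.86 and 32.7 CPM in descending aorta. Every ascending library lay above every descending library. The level was 6.10-fold higher in mutant ascending aorta (log2 fold change 2.61 ± 0.28, adjusted p = 1.43e-05) and 5.22-fold higher in wild-type ascending aorta (2.39 ± 0.27, adjusted p = 2.22e-05). Both calls stood under all 14 alternatives. The 12 heart muscle markers moved the same way: 7 rose in mutant ascending aorta, where 6.41% of all genes rose, and 10 in wild-type ascending aorta, where 7.82% did, and none fell in either genotype. Other lists also moved this way. Of 10 mesothelial markers 10 rose in mutant and 9 in wild-type ascending aorta, and of 10 cartilage markers tested 4 and 6 rose. None of either list fell. Markers scarce in descending aorta can pass the filter on low counts through the ascending libraries, which favours a rise. The counts of risen heart muscle, mesothelial and cartilage markers are therefore a description with no test. The part of these tissues in the Adamtsl2 difference between regions was not tested.

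Mfap4 was higher in ascending aorta of both genotypes. In mutant aorta its mean level was 463 ± 12.3 CPM in ascending and 224 ± 18.6 CPM in descending libraries (SD, n = 4 each), which did not overlap, with a log2 fold change of 1.05 ± 0.11 (adjusted p = 2.59e-06). In wild-type aorta the means were 757 ± 120.3 CPM in ascending and 564 ± 65.8 CPM in descending libraries, which overlapped, with a log2 fold change of 0.43 ± 0.11 (adjusted p = 0.0132). The wild-type call was lost without wild-type ascending library 5 (adjusted p = 0.0501), without wild-type descending library 3 (0.0504) and with only those groups in the fit (0.0641). Mfap2 rose in wild-type ascending aorta to a mean of 19.5 ± 3.06 CPM, against 10.5 ± 2.24 CPM in wild-type descending aorta, 1.87-fold higher with no overlap (log2 fold change 0.90 ± 0.18, adjusted p = 0.00207). In mutant aorta its means were 12.1 ± 2.32 CPM in ascending and 10.2 ± 2.19 CPM in descending libraries, a log2 difference of 0.25 ± 0.18 (adjusted p = 0.518). Adamts17 was 2.41-fold higher in wild-type ascending than in wild-type descending aorta, where libraries had 1.20, 1.07, 0.816 and 1.11 CPM (log2 fold change 1.27 ± 0.30, adjusted p = 0.0078). In mutant descending aorta Adamts17 had 1.01, 0.623, 0.694 and 0.487 CPM, and its region difference of 0.84 ± 0.32 did not pass (adjusted p = 0.128).

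In mutant aorta 2 of the genes were lower in ascending than in descending tissue. Adamtsl4 averaged 34.0 ± 4.33 CPM in mutant ascending and 46.4 ± 4.12 CPM in mutant descending aorta, with no overlap (log2 fold change -0.45 ± 0.10, adjusted p = 0.008). Adamts10 averaged 128 ± 10.4 CPM in mutant ascending aorta, against 146, 168, 196 and 153 CPM in the mutant descending libraries (log2 fold change -0.37 ± 0.10, adjusted p = 0.0249). The Adamts10 groups did not overlap, and its call was lost without mutant ascending library 2 (adjusted p = 0.0882) or 4 (0.0556) and without mutant descending library 4 (0.0596) or 6 (0.104). In wild-type aorta Adamts10 averaged 159 ± 8.38 CPM in ascending and 196 ± 26.3 CPM in descending libraries, a log2 fold change of -0.30 ± 0.10 (adjusted p = 0.0755). That difference passed with the library number as a fixed (adjusted p = 0.0343) or random replicate block (0.0329) and without wild-type descending library 1 (0.041). These are 3 of 14 alternatives, and in the others the adjusted p reached 0.266. Mfap5 in mutant aorta, with a log2 fold change of -0.28 ± 0.10 (adjusted p = 0.113), likewise passed with the fixed (0.0129) or random replicate block (0.0274), and without mutant ascending library 2 (0.0495). For Mfap5 too these are 3 of 14 alternatives, and in the others the adjusted p reached 0.319.

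**Figure D3:**
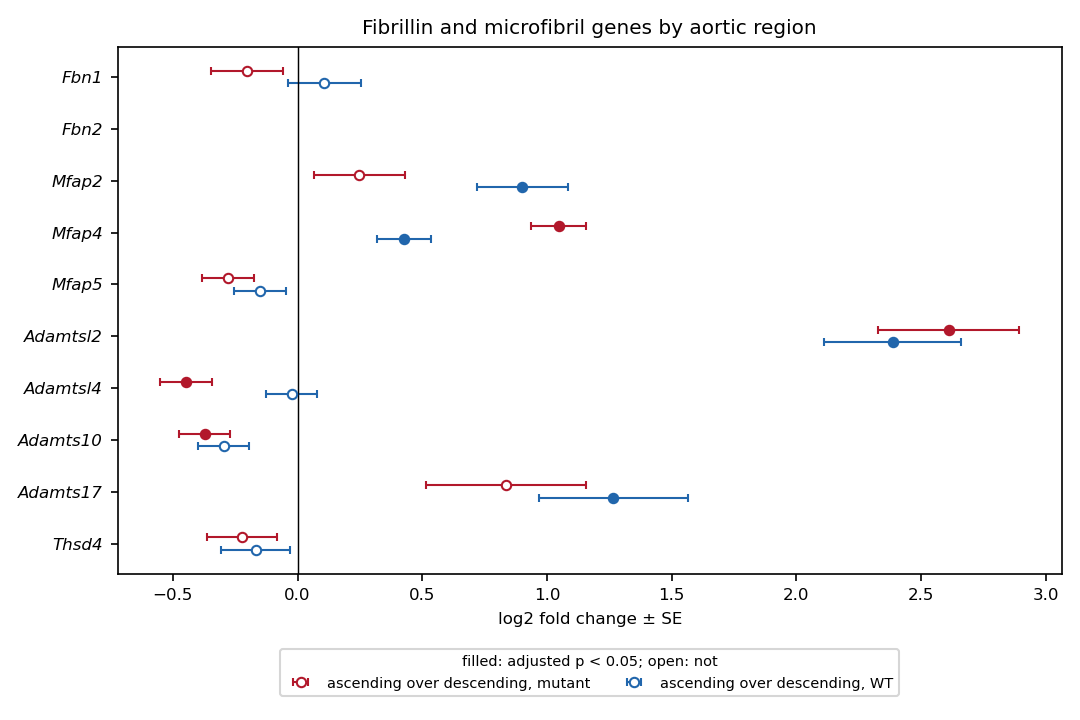
Log2 fold change of ascending over descending aorta (x axis) with its standard error in mutant and in wild-type mice. Filled points have an edgeR adjusted p under 0.05. Fbn2 is left out because it passed the filter on low counts only through the ascending libraries. Adamtsl2 stands apart at 2.61 in mutant and 2.39 in wild type.

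**Figure D4:**
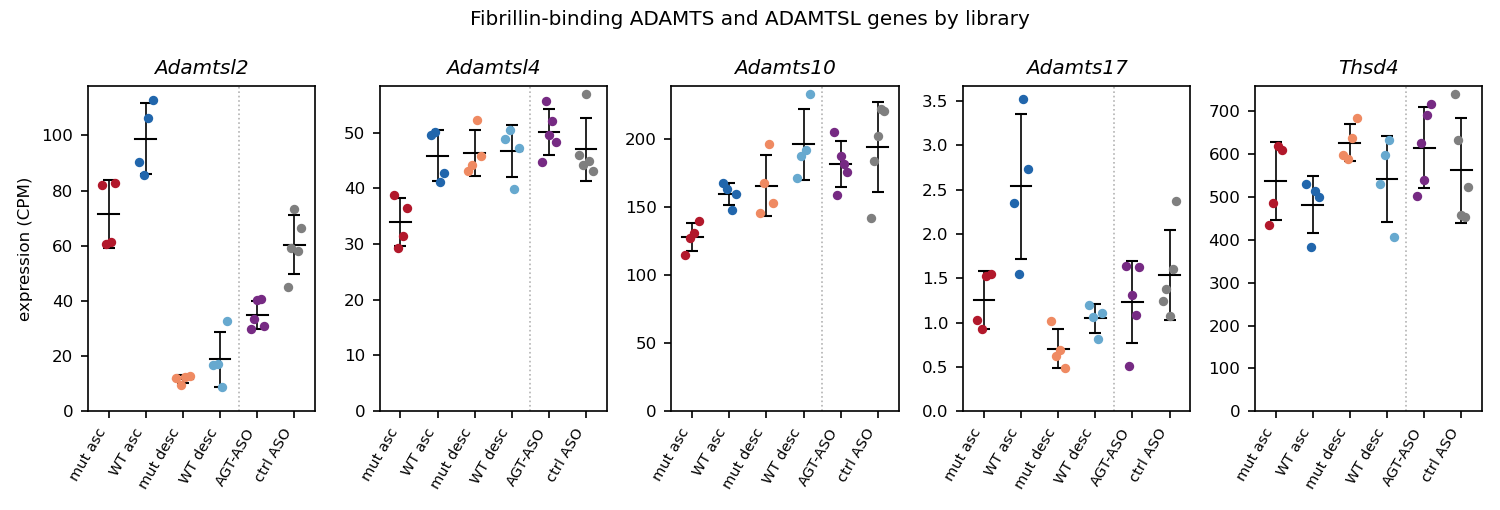
Expression (CPM, y axis) of the fibrillin-binding ADAMTS and ADAMTSL genes in each library by group; points are libraries, bars the mean and SD, and the dotted line parts the experiments. Adamtsl2 separates the regions in both genotypes, while the Thsd4 genotypes overlap in both regions.

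Whether the genotype effect differed between regions was tested as the interaction of genotype and region, which compares the log2 fold changes themselves. Of the 10 genes 0 were called by edgeR, where 0.00639% of all genes were, 3 had an unadjusted p under 0.05, and DESeq2 called 1. The 3 genes were Mfap4, Adamtsl4 and Mfap2. For Mfap4 the fall was larger in descending aorta by 0.62 ± 0.15 on the log2 scale (adjusted p = 0.386), and this was the gene that DESeq2 called (adjusted p = 0.0476). No other of the 21 alternatives called Mfap4 there, and the adjusted p reached 0.678. For Mfap2 the interaction was -0.65 ± 0.26 (adjusted p = 0.833) and for Adamtsl4 -0.42 ± 0.15 (adjusted p = 0.74). By edgeR a difference between regions in the genotype effect is thus not shown for any of the genes.

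Adamtsl2 was lower with AGT-ASO than with control ASO, and the other 9 genes were not called. Of all 14981 genes tested, 0.0668% were called, 0.0134% higher and 0.0534% lower. Adamtsl2 had 29.7, 33.5, 40.3, 40.5 and 30.8 CPM with AGT-ASO, against 44.9, 59.1, 73.2, 58.2 and 66.6 CPM with control ASO. The groups did not overlap, as for 2.46% of all genes, and Adamtsl2 was the only such gene of the 10. The level was 42.1% lower with AGT-ASO, with a log2 fold change of -0.79 ± 0.13 (SE, n = 5 each, adjusted p = 0.0378). It stayed below 0 in all 14 alternatives, but the call was lost in 9 of them. These were the heart muscle covariate, where the log2 fold change was -0.55 at an adjusted p of 0.323, and 8 of the 10 fits that leave out a library. With the adjusted p in parentheses, the libraries were AGT-ASO 15 (0.08), 18 (0.0978), 19 (0.0715) and 20 (0.0661) and Control-ASO 12 (0.0847), 13 (0.129), 16 (0.102) and 17 (0.0911). In those 8 fits 0 to 9 of all genes were called. Without Control-ASO library 8 the log2 fold change was -0.88 (adjusted p = 0.00222, edgeR), a fit in which 180 of all genes were called. The heart muscle sum was 493, 749.8, 495, 511 and 321 CPM in the AGT-ASO libraries, against 741, 735, 1705, 1417 and 1284 CPM in the control libraries. Of 11 heart muscle markers tested, none was called by edgeR, 9 had an unadjusted p under 0.05, DESeq2 called 3, and their median log2 fold change was -1.51.

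**Figure D5:**
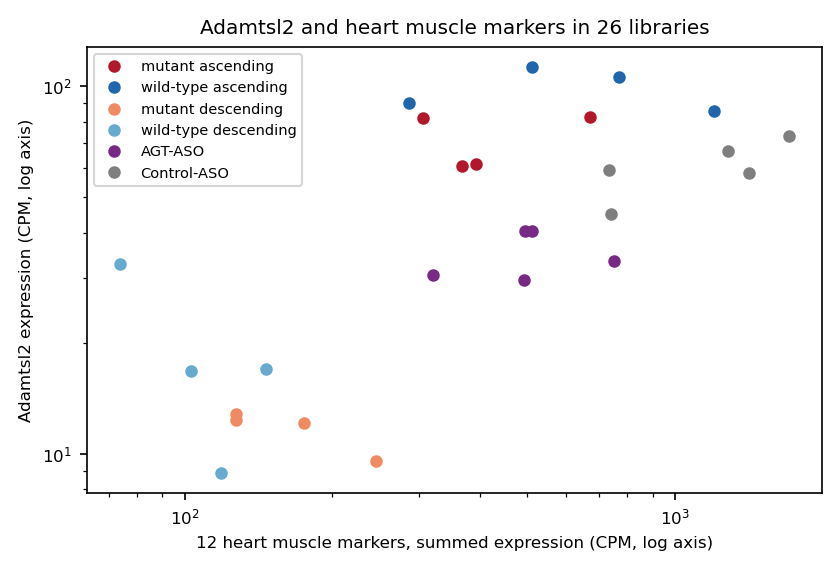
Adamtsl2 level (CPM) of each library against the summed level of 12 heart muscle markers (CPM); colours mark the 6 groups. AGT-ASO libraries lie below control libraries in Adamtsl2, at 29.7 to 40.5 against 44.9 to 73.2 CPM, and mostly at lower marker sums.

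Fbn2 had 0.385, 0.790, 0.382, 0.583 and 0.337 CPM with AGT-ASO, against 0.498, 1.16, 0.908, 1.72 and 1.26 CPM with control ASO. The groups overlapped because AGT-ASO libraries 15 and 19 lay above control library 8, and the log2 fold change of -1.16 ± 0.42 did not pass (adjusted p = 0.278). Mfap4 had 643, 434, 472, 757 and 565 CPM with AGT-ASO, against 815, 432, 302, 478 and 390.0 CPM with control ASO. Control library 8 was the highest of all 10, and the log2 fold change was 0.25 ± 0.27 (adjusted p = 0.759). Mfap5 had 200.1, 177, 180.4, 187 and 188 CPM with AGT-ASO, against 210.2, 148, 132, 161 and 133 CPM with control ASO. Control library 8 was again the highest and lay above every AGT-ASO library, while the other 4 controls lay below all of them. The log2 fold change of Mfap5 was 0.25 ± 0.11 (adjusted p = 0.361). Without control library 8 it was 0.38 and was called (adjusted p = 0.02), a fit in which 180 genes were called against 10 with all libraries. No other of the 14 alternatives called Mfap5, and the adjusted p reached 0.958.

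The remaining genes overlapped between the antisense groups. Mfap2 had 16.6, 17.1, 16.3, 16.5 and 13.4 CPM with AGT-ASO, against 13.6, 15.2, 19.2, 17.4 and 16.5 CPM with control ASO. Adamtsl4 averaged 50.1 ± 4.10 CPM with AGT-ASO, against 47.1 ± 5.67 CPM with control ASO (SD, n = 5 each). Adamts10 averaged 182 ± 16.8 CPM with AGT-ASO, against 194 ± 32.9 CPM with control ASO, with control library 8 the lowest at 142 CPM. Adamts17 averaged 1.23 ± 0.467 CPM with AGT-ASO, against 1.54 ± 0.505 CPM with control ASO. Thsd4 averaged 616 ± 94.0 CPM with AGT-ASO, against 562 ± 123.6 CPM with control ASO, with control library 8 the highest at 742 CPM. The median log2 fold change of the 10 genes was -0.06, against -0.01 for all genes.

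Genes of the same pathway were taken from lists. Of 10 relatives, which are further Mfap, ADAMTS and ADAMTSL genes, none was called by genotype in either region by edgeR. Of all genes 2.19% were called in ascending and 1.21% in descending aorta. Among the relatives 2 in ascending and 4 in descending aorta had an unadjusted p under 0.05, and DESeq2 called 1 and 0. By region, 1 of 10 relatives rose and 2 fell in mutant ascending aorta (6.41% and 3.51% of all genes), and 2 rose and none fell in wild-type ascending aorta (7.82% and 3.31% of all genes). Papln, which encodes papilin, a matrix protein of basement membranes in the fly, averaged 4.74 ± 0.529 CPM in mutant ascending and 1.27 ± 0.505 CPM in mutant descending aorta (log2 fold change 1.90 ± 0.26, adjusted p = 4.9e-05). In wild type Papln averaged 5.66 ± 0.688 CPM in ascending and 1.34 ± 0.416 CPM in descending aorta (2.07 ± 0.25, adjusted p = 1.4e-05). Mfap3l (log2 fold change -1.11 ± 0.21) and Adamtsl3 (-0.60 ± 0.17) fell in mutant ascending aorta. The Adamtsl3 call was lost in 6 alternatives, 4 of them fits without mutant ascending library 2 or 4 or mutant descending library 6 or 8, with adjusted p of 0.0901 to 0.102. Adamts19, whose human counterpart is mutated in heart valve disease, had 0.32 to 6.93 CPM in wild-type ascending aorta and 0 to 0.435 CPM in wild-type descending aorta. It is 1 of the 2 relatives counted as risen there. Its wild-type descending libraries were too low to pass the filter on low counts, so it passed through other libraries. The filter thus favoured a rise, and the values of Adamts19 are given as a description with no test. With the random replicate block it was not called.

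Of 20 partner genes, which encode latent TGF-beta binding proteins, elastin, fibulins, emilins, lysyl oxidases and proteoglycans of the microfibril surface, 19 were tested. In mutant ascending aorta none rose and 1 fell by genotype, where 1.18% of all genes rose and 1.00% fell. The partner gene that fell was Ltbp4, which encodes a latent TGF-beta binding protein needed for elastic fibre assembly, at 1400 ± 131.7 CPM in mutant and 1860 ± 186 CPM in wild type (SD, n = 4 each). Its log2 fold change was -0.41 ± 0.09 (adjusted p = 0.0217). That call was lost without mutant ascending library 2 (0.0816) or 4 (0.0717), without wild-type ascending library 1 (0.0561) or 7 (0.0768), with only both groups in the fit (0.0836) and with the heart muscle covariate (0.0622). In descending aorta 0 of 19 were called by genotype with edgeR, against 1.21% of all genes, 4 had an unadjusted p under 0.05, and DESeq2 called 1. By region 7 of 19 rose and none fell in mutant ascending aorta, where 6.41% of all genes rose and 3.51% fell, and 4 rose and 1 fell in wild-type ascending aorta, where 7.82% of all genes rose and 3.31% fell. The 1 that fell was Emilin2 (log2 fold change -0.58 ± 0.18, adjusted p = 0.0488), named after its value was seen, whose call was lost in 9 of 14 alternatives, 6 of them fits without wild-type ascending library 3, 5 or 7 or wild-type descending library 1, 3 or 7. Efemp1, which encodes fibulin-3, had the smallest p in both genotypes, at 108 ± 16.5 CPM in mutant ascending and 24.4 ± 4.02 CPM in mutant descending aorta (log2 fold change 2.15 ± 0.16). In wild type Efemp1 averaged 87.7 ± 11.7 CPM in ascending and 18.2 ± 4.06 CPM in descending aorta (2.27 ± 0.16). Ltbp2 rose in both genotypes, by a log2 fold change of 1.14 ± 0.11 in mutant and 1.17 ± 0.11 in wild-type ascending aorta. Fbln5, which encodes the elastin-organising fibulin-5, and the proteoglycan gene Bgn rose in mutant ascending aorta with log2 fold changes of 0.82 ± 0.11 and 0.39 ± 0.08. In wild-type ascending aorta Dcn rose with a log2 fold change of 0.76 ± 0.19 and Fbln1 with 0.86 ± 0.24, both of them also in the fibroblast list, of which 5 of 10 genes rose there. Neither was called without a count filter (0.0598 for Dcn and 0.0926 for Fbln1) or with only those groups in the fit (0.0622 and 0.13), and Fbln1 was also not called without wild-type ascending library 5 (0.0798) or 7 (0.0802) or wild-type descending library 1 (0.0546) or 3 (0.0868).

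Of 8 genes of integrins, the cell receptors that bind fibrillin and activate latent TGF-beta, 7 were tested. By genotype 1 of the 7 rose and none fell in mutant ascending aorta, where 1.18% of all genes rose and 1.00% fell. Itga5, the alpha subunit of the fibronectin receptor, rose by genotype in mutant ascending aorta to 615 ± 173 CPM, against 325 ± 48.4 CPM in wild type (log2 fold change 0.92 ± 0.20, adjusted p = 0.0249). The call was lost without mutant ascending library 2 (0.098) or 4 (0.0803), without wild-type ascending library 3 (0.067), 5 (0.0893) or 7 (0.0719), without a count filter (0.0897) and with the heart muscle covariate (0.18). In descending aorta 0 of 7 were called by genotype with edgeR, against 1.21% of all genes, 1 had an unadjusted p under 0.05, and DESeq2 called 0. Itgb8, a subunit of a receptor that activates latent TGF-beta, was 2.90-fold higher in mutant ascending than in mutant descending aorta (adjusted p = 0.000413). It was 2.99-fold higher in wild-type ascending than in wild-type descending aorta (adjusted p = 0.000206). Itgb5 rose in mutant ascending aorta with a log2 fold change of 0.33 ± 0.09 (adjusted p = 0.0218). It was not called without mutant ascending library 2 (0.0533) or 4 (0.0527) or mutant descending library 6 (0.0833). With AGT-ASO edgeR called 0 of 10 relatives, 0 of 19 partners and 0 of 7 integrins, against 0.0668% of all genes. Of these lists 2, 3 and 0 genes were at an unadjusted p under 0.05, and DESeq2 called 1, 1 and 0.

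As a description, the genes whose log2 CPM over the 16 untreated libraries was most like each structural gene were listed, with Pearson's r and then r after the group means were removed. These libraries share groups, and pairs of them share a library number. Fbn1 was most like Cyp4f14 (r 0.85 and 0.83). Mfap2 was most like Rapgef4 (0.93 and 0.89), Gal3st2b (0.93 and 0.76) and Sprn (0.93 and 0.89). Mfap4 was most like Galnt6 (0.97 and 0.44), Gm49643 (0.96 and 0.08) and Kcnj15 (0.95 and -0.01), and Mfap5 most like Rbp4 (0.91 and 0.47), Wasf3 (0.87 and 0.32) and Pi16 (0.86 and 0.61). Fbn2 was most like Elavl2 (0.98 and 0.71), Slc6a14 (0.98 and 0.63) and Abcb1a (0.98 and 0.43). The genes were picked for a high r over these same libraries, so neither r is a test.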

How the data were processed

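The authors deposited 1 table of raw counts for each library, listed by Ensembl gene and not normalized. Per the submitters' processing notes, fastp and STAR 2.6.1d were used with build mm10. Not given in the sources used here are the counting tool, strand setting and annotation release. Names, lengths and coordinates come from GENCODE M21 on GRCm38, the same build, which named 99.93% of the 54532 identifiers.

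The 16 untreated and the 10 antisense libraries were fitted apart in R 4.3.3 by the quasi-likelihood method of edgeR 4.0.16 (TMM factors, filterByExpr by group, robust dispersions), with 15645 and 14981 genes. All 10 genes passed the count filter in both fits. P-values are two-sided and were adjusted by Benjamini-Hochberg over all genes of a comparison; a gene was called at an adjusted p under 0.05. CPM errors are SD and fold change errors SE. Intervals and floors for Fbn2 cover counting error only, since no molecular identifiers are stated. The steps were tested on simulated data.

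The genes and lists were chosen with earlier results of these data known. The rule for named genes takes all 10, up to 4 called genes with the smallest p per list and comparison, and the 3 most alike genes for Fbn1, Fbn2 and each Mfap gene, of which 2 for Fbn1 are not reported here.

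In the labels the numbers 1 to 8 recur in ascending and descending libraries. Over all 8 pairs, deviations from the group means correlated at r of 0.162 to 0.305 across genes. For other numbers of the same genotype the mean was -0.077. Deviations cancel out within a group, so that mean follows from the same-number values and is no separate baseline. Of the ascending libraries, 6 correlated best with the descending library of their own number. Libraries of the same number were thus alike across regions. The main fits did not use the number, so their p-values by region and for the interaction ignore this pairing. The number entered only as a replicate block among the alternatives. Alternatives were RLE factors, no count filter, DESeq2 1.42.0, only the compared groups, the number as a replicate block (fixed in edgeR, or random in limma 3.58.1 voom with a correlation of 0.268), a heart muscle covariate for genotype in ascending aorta and for AGT-ASO, and leaving out each library.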

Additional observations from a re-analysis of the deposited data

Results flagged for a closer look

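In 59 sets of libraries, 1 for each gene and group with unequal values, the highest and lowest library was compared with the rest by Dixon's gap over range, which chance exceeds in about 1 of 20 groups. Fbn2 in wild-type descending library 3 had 0.0508 CPM, while the other 3 libraries of its group had 0; this is 1 count. Mfap2 in AGT-ASO library 20 had 13.4 CPM, below the 16.3 to 17.1 CPM of the other 4. Adamtsl4 in Control-ASO library 13 had 57.0 CPM, above the 43.1 to 46.0 CPM of the other 4. The cause was not tested for any of these.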

How the results depend on the processing

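Over the log2 fold changes of the 10 genes and the named list genes, 1072 alternative values kept direction and side of the threshold, 92 lost a call, 15 gained one and 22 changed sign. The counts of calls are not in this tally. With the heart muscle covariate the AGT-ASO log2 fold change turned round for Adamts10 (0.083), Mfap2 (0.254), Mfap4 (-0.176) and Thsd4 (-0.208), none of which was called either way, and the count of the 10 genes called with AGT-ASO fell to 0. Leaving out each library gave uncalled values on both sides of 0: -0.168 to 0.018 for Adamts10, -0.18 to 0.45 for Adamtsl2 and -0.148 to 0.064 for Thsd4 in the interaction, -0.074 to 0.032 for Adamtsl4 and -0.138 to 0.095 for Mfap2 by genotype in descending aorta, -0.083 to 0.032 for Adamtsl4 by region in wild type, and -0.094 to 0.029 for Mfap2 with AGT-ASO. DESeq2 called 5 of the 10 genes by genotype in ascending aorta, against 3, and 1 in the interaction, against 0. Over all genes it called 779 by genotype in ascending aorta (342 in edgeR), 414 in descending aorta (189), 38 in the interaction (1) and 289 with AGT-ASO (10). Without a count filter 147 genes were called with AGT-ASO and 6 in the interaction. The heart muscle covariate left 121 by genotype in ascending aorta. The replicate block gave 13 (fixed) and 5 (random) calls in the interaction, and 2321 and 2100 by region in mutant aorta; beyond the calls given beside Mfap2, Mfap5, Adamts10, Adamts19, Dpep1 and Dpt, and for Col11a2 (random, adjusted p = 0.0983), it changed no other call of a named gene. Leaving out each library gave 0 to 2 of the 10 genes and 0 to 180 of all genes with AGT-ASO, 163 to 347 by genotype in ascending aorta and 1 to 10 in the interaction. The causes of these shifts were not tested. No gene of the 10 was removed by the count filter, so the permutation tests planned for such genes were not run. Depth limits Fbn2 and Adamts17 most, with 0 to 48 and 9 to 69 counts per library.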
